A study of Mus musculus with 3 samples.

Results

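The genes described here encode the 5 subunits of the transcription factor NF-kappaB (Rel, Rela, Relb, Nfkb1 and Nfkb2) and 5 proteins grouped here as its inhibitors (Nfkbia, Nfkbib, Nfkbie, Nfkbiz and Tnfaip3). They were chosen by symbol, and all 10 were found once each among the 48709 genes of the deposited count table. Its 3 libraries form 1 group, wild type (WT), and were made by RNA-seq from mouse lung cells that were sorted and labelled as smooth muscle cells. The transgenic mice carried smooth muscle actin creERT2, a Cre recombinase driven by the smooth muscle actin promoter and switched on by tamoxifen, together with tdTomato, a red fluorescent protein. Tamoxifen was given at 75 mg/kg daily for 10 days from an age of 8 weeks, and lungs were digested and sorted 2 months later. There is no untreated or second group, and the sources used here do not give the sort gate. Nothing in the labels ties a library to its own mouse, so the spread between libraries may be technical.

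NF-kappaB acts as a dimer of its subunits. In resting cells the dimers are held in the cytoplasm by IkB proteins, and signals from cytokine, Toll-like and antigen receptors make the IkB kinase mark these for destruction, which frees the dimer to enter the nucleus. Several inhibitors, Nfkbia and Tnfaip3 among them, are themselves NF-kappaB target genes, which gives the pathway negative feedback. In the lung the pathway is known for driving inflammatory genes in structural and immune cells, and in lymphocytes it supports activation and survival.

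Promoter sequences of the members were searched for the site that NF-kappaB dimers bind. RefSeq start sites (GRCm38.p6) were available for 7 members, and windows of 300 bases, from 250 before to 50 after the start, were read on both strands for matches to the NF-kappaB consensus. The consensus occurred in the windows of 5 of these 7 members (Rel, Nfkb2, Nfkbia, Nfkbie and Tnfaip3) and not in those of Rela and Nfkbib. A gene can have several start sites, and counted by window 7 of the 10 windows of these members held it, against 8.46% of 32851 windows over all genes. The matches upstream of the start site nearest to each gene's deposited 5′ end follow in 30-base stretches on the gene's strand, with the matched bases in capitals. They are shown for all 5 members with a match. Relb, Nfkb1 and Nfkbiz had no window and could not be searched. Any link between a match and a member's level or spread was not tested.
Rel: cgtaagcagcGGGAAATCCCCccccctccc
Nfkbie: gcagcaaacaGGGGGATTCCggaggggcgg
Nfkbia: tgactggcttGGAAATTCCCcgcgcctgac
Tnfaip3, distal: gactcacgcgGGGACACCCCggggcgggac
Tnfaip3, proximal: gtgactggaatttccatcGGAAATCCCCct
Nfkb2, distal: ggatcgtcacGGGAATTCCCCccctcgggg
Nfkb2, proximal: ccccctcggggggccgaaaGGGGCTTTCCc
The stretch of Rel lies at chr11:23771042-23771071 on the minus strand, that of Nfkbie at chr17:45555584-45555613 on the plus strand and that of Nfkbia at chr12:55492657-55492686 on the minus strand. Those of Tnfaip3 lie at chr10:19015516-19015545 and chr10:19015411-19015440 on the minus strand, and those of Nfkb2 at chr19:46304688-46304717 and chr19:46304707-46304736 on the plus strand. In Nfkbia the match covers bases 29 to 20 before the start, and the proximal match of Tnfaip3 covers bases 12 to 3 before it. The start used for Tnfaip3 lies 247 bases inside the deposited gene, and both its stretches fall within that gene. The nearest start of Nfkbib lies 868 bases from its deposited 5′ end, and those of the other members searched at most 58. The runs of 11 capitals in Rel and in the distal stretch of Nfkb2 each hold 2 overlapping matches. A match is a description of the letters, and binding was not measured.

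Levels are given as counts per 1000000 counts of the library (CPM), and between genes per kilobase of the union of a gene's exons, as mean ± SD of the 3 libraries. Library totals were 16877297 to 18896263 counts, and the members had 501 to 14670 counts in a library. All 10 members averaged 10 CPM or more and 6 averaged 100 or more, against 35.8% and 5.89% of the 22005 nuclear protein-coding genes. Their median was 24.7 ± 4.44 CPM per kilobase. Over the 13057 nuclear protein-coding genes that averaged 1 CPM or more the median was 3.57 CPM per kilobase. Over the 8930 genes of any type with a known length that averaged 10 CPM or more it was 7.97 ± 0.48.

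**Figure D1:**
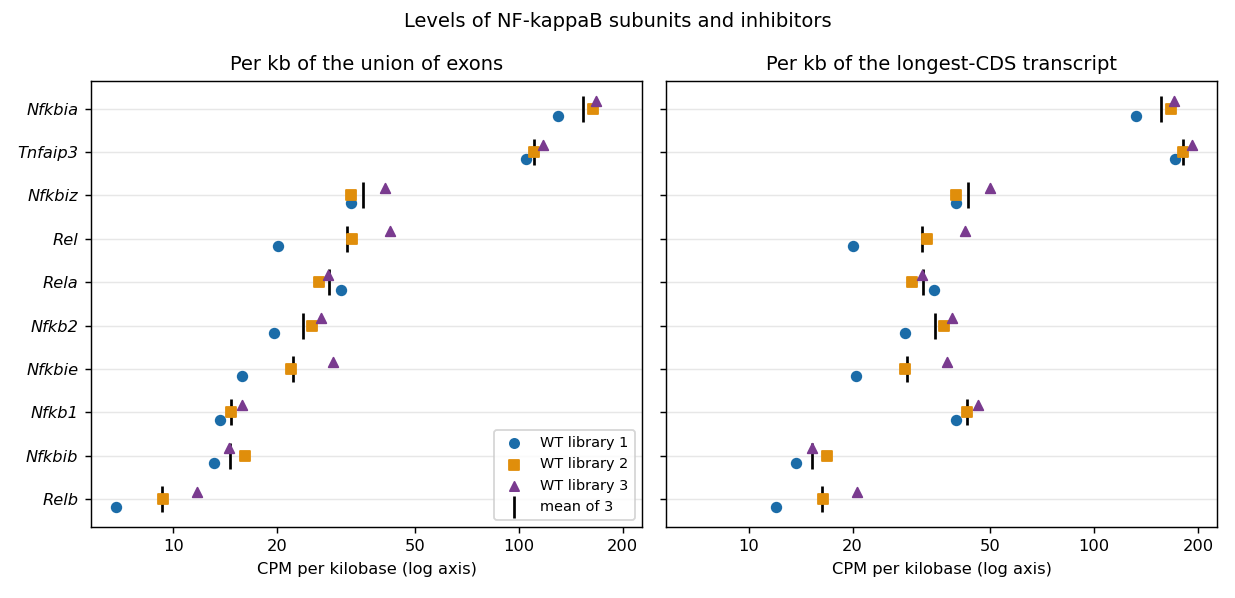
Levels of the 10 members in each library, in CPM per kilobase on a log axis, per kilobase of the union of exons (left) and of the transcript with the longest coding sequence (right). Points are WT libraries 1 to 3 and bars their mean. Nfkbia and Tnfaip3 stand apart on both scales, at 154 and 111 CPM per kilobase on the left, and Nfkb1 shifts from 14.7 on the left to 43.0 on the right.

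The inhibitors Nfkbia and Tnfaip3 were the most abundant members. Tnfaip3, which encodes the ubiquitin-editing enzyme that shuts off signalling from cytokine receptors (ENSMUSG00000019850, chromosome 10, 19000910 to 19015657), had 757, 799 and 850 CPM in libraries 1, 2 and 3. These values lie close together, with a mean of 802 ± 46.4 CPM, which ranked 55 among nuclear protein-coding genes. It made up 40.9% ± 2.65 of the summed CPM of the 10 members. Nfkbia encodes IkB-alpha, the inhibitor that is rapidly destroyed and resynthesised (ENSMUSG00000021025, chromosome 12, 55489411 to 55492647). It had 209, 264 and 270 CPM, with library 1 below the other two. Because its exons span only 1610 bases, against 7226 for Tnfaip3, Nfkbia led per kilobase, at 154 ± 20.8 against 111 ± 6.42 CPM per kilobase. Only 1.01% of the 13057 nuclear protein-coding genes averaging 1 CPM or more were at or above Nfkbia on that scale, and 1.32% were at or above Tnfaip3. The order of this pair rests on the length used. Within libraries the log2 ratio of Nfkbia to Tnfaip3 was 0.46 ± 0.14 per kilobase of exon union and -0.22 ± 0.14 per kilobase of the transcript with the longest coding sequence.

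The other inhibitors were lower. Nfkbiz encodes IkB-zeta, a nuclear protein that acts with NF-kappaB at some promoters (ENSMUSG00000035356, chromosome 16, 55811375 to 55838899). It had 164, 164 and 205 CPM, high in library 3 alone, or 35.4 ± 4.74 CPM per kilobase. Nfkbie, for IkB-epsilon (ENSMUSG00000023947, chromosome 17, 45555716 to 45563169), had 48.2, 66.8 and 88.3 CPM, or 22.3 ± 6.59 CPM per kilobase, lowest in library 1 and highest in library 3. Nfkbib, for IkB-beta, which is degraded more slowly than IkB-alpha in many cells (ENSMUSG00000030595, chromosome 7, 28758251 to 28767512), was the lowest inhibitor at 28.4, 34.9 and 31.4 CPM, or 14.5 ± 1.5 CPM per kilobase. Its exons overlap genes on the opposite strand, Ccer2 over 14.5% and Sirt2 over 1.94% of their bases, and the sources used here do not say whether counting used strand, so these counts are uncertain to that extent. Ccer2 had only 0, 5 and 6 counts, and Sirt2 had 562 to 677. Within libraries Nfkbia exceeded Nfkbib by 3.38 ± 0.12 on the log2 scale per kilobase, which is 10.4-fold, Nfkbie by 2.81 ± 0.26 and Nfkbiz by 2.11 ± 0.18. These ratios kept their sign in each of the 3 libraries, with either length.

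Among the subunits, Rel had the highest and Relb the lowest mean per kilobase of exon union. Rel encodes c-Rel, a subunit best known in lymphocytes (ENSMUSG00000020275, chromosome 11, 23736847 to 23770970), and had 150, 246 and 317 CPM, or 31.8 ± 11.2 CPM per kilobase. Library 3 thus held 2.11 times the level of library 1, the widest range of any member. Rela encodes the broadly expressed subunit of the classical dimer, which carries its activation domain (ENSMUSG00000024927, chromosome 19, 5637483 to 5648130). It had 93.7, 80.8 and 86.1 CPM, or 28.3 ± 2.11 CPM per kilobase, and was the only member with its highest CPM in library 1. The log2 ratio of Rela to Rel was 0.60, -0.32 and -0.59 per kilobase in libraries 1, 2 and 3, a mean of -0.10 ± 0.63, so neither lay above the other beyond the spread. Relb encodes the subunit that pairs with the Nfkb2 product in the alternative pathway (ENSMUSG00000002983, chromosome 7, 19606217 to 19629438). It had 26.5, 36.2 and 45.6 CPM, or 9.29 ± 2.45 CPM per kilobase, and Rela exceeded it by 1.63 ± 0.46 on the log2 scale, or by 0.99 ± 0.46 with transcript length.

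Nfkb1 and Nfkb2 encode long precursors whose C-terminal parts resemble an IkB and whose N-terminal parts give the DNA-binding partners of the other subunits. Nfkb1 (ENSMUSG00000028163, chromosome 3, 135584655 to 135691547) had 164, 177 and 190 CPM, a narrow range. Nfkb2 (ENSMUSG00000025225, chromosome 19, 46304737 to 46312090) had 89.4, 115 and 122 CPM, with library 1 below the other two. Per kilobase of exon union Nfkb1 had 14.7 ± 1.07 and Nfkb2 23.8 ± 3.79 CPM, and their log2 ratio was -0.69 ± 0.15. The union of Nfkb1 exons is 12061 bases, whereas its transcript with the longest coding sequence has 4117. Per kilobase of that transcript Nfkb1 had 43.0 ± 3.14 and Nfkb2 34.7 ± 5.53 CPM, and the log2 ratio was 0.32 ± 0.15, on the other side of 0. The ratio of Rela to Nfkb1 turned likewise, from 0.95 ± 0.19 to -0.42 ± 0.19, and these data do not settle the order of Nfkb1 among the subunits. Relb stayed below Nfkb2 with either length, at -1.36 ± 0.17 and -1.10 ± 0.17. Exons of Nfkb2 overlap Psd on the opposite strand over 6.52% of their bases, and Psd had 382 to 543 counts. Over 11.6% of bases they overlap an annotated long non-coding RNA on the opposite strand. That RNA has no counts of its own in the deposited data, and the level of Nfkb2 carries the same uncertainty.

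**Figure D2:**
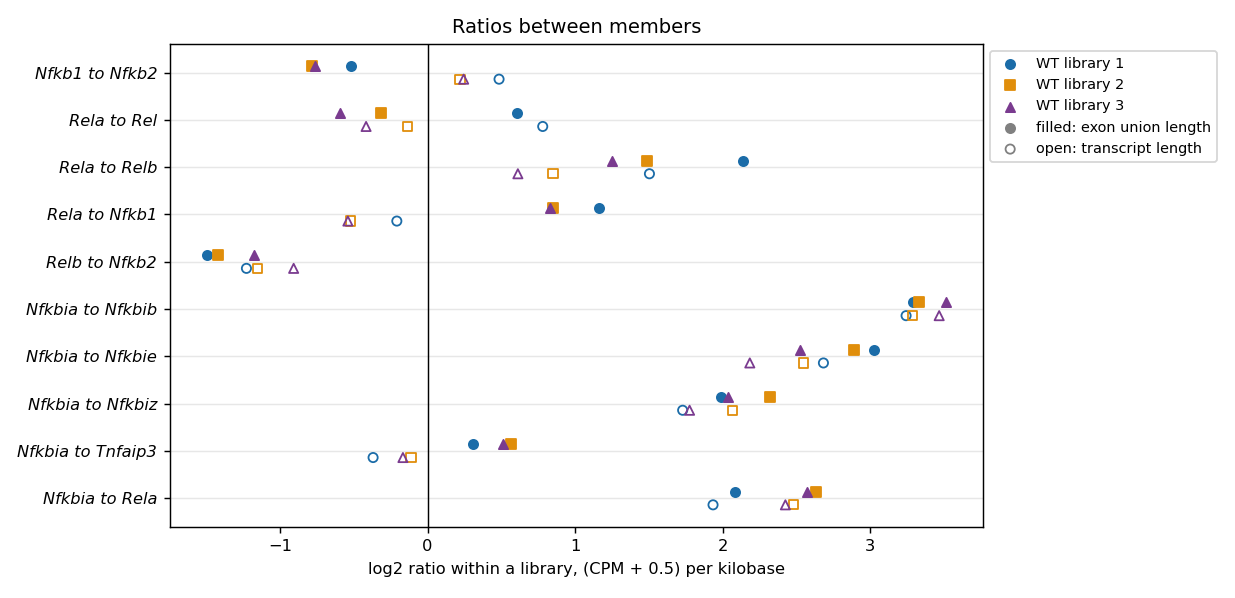
Log2 ratios between members within each library, from (CPM + 0.5) per kilobase, with the exon union (filled) or the transcript with the longest coding sequence (open) as the length. Points are WT libraries 1 to 3. Nfkbia lies above Nfkbib, Nfkbie, Nfkbiz and Rela in each library on both scales, whereas the ratios of Nfkb1 to Nfkb2, Rela to Nfkb1 and Nfkbia to Tnfaip3 change sign with the length.

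In the order of mean CPM per kilobase of exon union, the members ran Nfkbia, Tnfaip3, Nfkbiz, Rel, Rela, Nfkb2, Nfkbie, Nfkb1, Nfkbib and Relb. Of the 9 pairs of neighbours in that order, 4 differed in the same direction in each library by a mean above the SD. These were Nfkbia over Tnfaip3, Tnfaip3 over Nfkbiz by 1.65 ± 0.12, Nfkbie over Nfkb1 by 0.57 ± 0.33 and Nfkbib over Relb by 0.68 ± 0.33. From Nfkbiz down to Nfkbie, and between Nfkb1 and Nfkbib, neighbours did not differ beyond their spread. With transcript length Nfkbie to Nfkb1 and Nfkbib to Relb gave -0.61 and -0.062, and Nfkb1 to Nfkbib gave 1.47. Summed per kilobase, the 5 inhibitors exceeded the 5 subunits by 1.65 ± 0.07 on the log2 scale, mostly through Nfkbia and Tnfaip3, which held 34.5% ± 1.39 and 25.1% ± 1.76 of the sum over all members. The ratios carry no test, since over 3 libraries the smallest p of an exact permutation of signs, taken on both sides, is 0.25.

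Members differed in how steady they were between libraries. A chi-square test of homogeneity with library sizes scaled by TMM called 8 of the 10 members as varying beyond counting error, at an adjusted p under 0.05, and 70% of the 23317 genes tested. The members' share is thus near that of all genes and no result about them. Nfkb1 and Tnfaip3 were not called, with Benjamini-Hochberg adjusted p-values of 0.35 and 0.11 in this chi-square test. With library totals in place of TMM all 10 were called. Leaving out library 1 lost the calls of Rela and Nfkb2, leaving out library 2 that of Nfkbib and leaving out library 3 that of Nfkbiz. Under TMM scaling the highest level of Tnfaip3 exceeded its lowest by a factor of 1.02 and that of Nfkb1 by 1.04. The median biological coefficient of variation of the members was 0.150 by edgeR, against 0.258 over the 16608 genes kept. With nuclear protein-coding genes only, these were 0.147 and 0.222. Rel had the highest coefficient among members, 0.214, and Nfkb1 the lowest, 0.136. The genes kept were not matched to the members in level. The median ratio of highest to lowest CPM was 1.27 for the members, near the 1.30 of the 8944 genes averaging 10 CPM or more.

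Rel, Relb and Nfkbie were the 3 members whose highest CPM was at least 1.5 times their lowest, with ratios of 2.11, 1.72 and 1.83. Among the 8944 genes averaging 10 CPM or more, 26.2% reached that ratio. Without library 1 none of the 10 members reached it, and without library 3 only Rel did. All 3 were lowest in library 1 and highest in library 3, an order that, with a ratio of at least 1.5, 10.6% of the 8944 genes shared. That order was picked after the values were seen. It was the same for these 3 genes with TMM sizes, DESeq2 size factors and totals of protein-coding genes. With TMM sizes the 3 ratios were 1.87, 1.53 and 1.63, and 5.1% of genes shared the pattern. Without regard to the ratio, library totals place 7 of the 10 members in that order, against 33.7% of the 8944 genes, and TMM sizes place only these 3, against 19%.

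Markers of B cells differed between libraries in the same order. All 8 genes of the B cell list, from Cd79a to Blk, were lowest in library 1 and highest in library 3 by at least 1.5-fold. With TMM sizes 8 kept the order and 6 the ratio. Among the 8944 genes averaging 10 CPM or more, 33.7% had the order and 10.6% also the ratio. With TMM sizes these shares were 19% and 5.1%. The B cell list's summed level was 1097, 1593 and 2043 CPM. Its median deviation from the mean of the libraries was -0.54, 0.05 and 0.49 on the log2(CPM + 1) scale. The deviations of Rel were -0.59, 0.11 and 0.48, those of Nfkbie -0.44, 0.02 and 0.42 and those of Relb -0.40, 0.04 and 0.36. The list of T and NK cells, the other lymphocytes, was split, with median deviations of 0.07, 0.10 and -0.21, lowest in library 3. Of its 10 genes, 3 were lowest in library 1 and highest in library 3, a share near the 33.7% of those 8944 genes. Of these 3, 2 also differed by at least 1.5-fold. These 2 were Klrd1, at 23.0, 26.9 and 50.6 CPM, and Nkg7, at 53.0, 57.7 and 81.2 CPM. Cd3e, Cd3g and Cd8a went the other way by at least 1.5-fold, highest in library 1 and lowest in library 3. Cd3e had 153, 147 and 98.1 CPM, Cd3g 157, 150 and 93.1 and Cd8a 103, 75.5 and 62.0. With TMM sizes 2 of the 10 genes of T and NK cells had the order and 1 the ratio as well, against 19% and 5.1%. Fibroblast markers were also lowest in library 1 and highest in library 3, with median deviations of -0.72, 0.34 and 0.38. Of these 8 genes, 4 had the order and 3 also the ratio. With TMM sizes 2 had the order and 1 also the ratio, and the fibroblast median was highest in library 2. Epithelial markers were high in library 1, with a median deviation of 0.99. The part of these cell types in the members' levels was not tested, and in bulk RNA more cells of a type and more RNA per cell cannot be told apart.

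**Figure D3:**
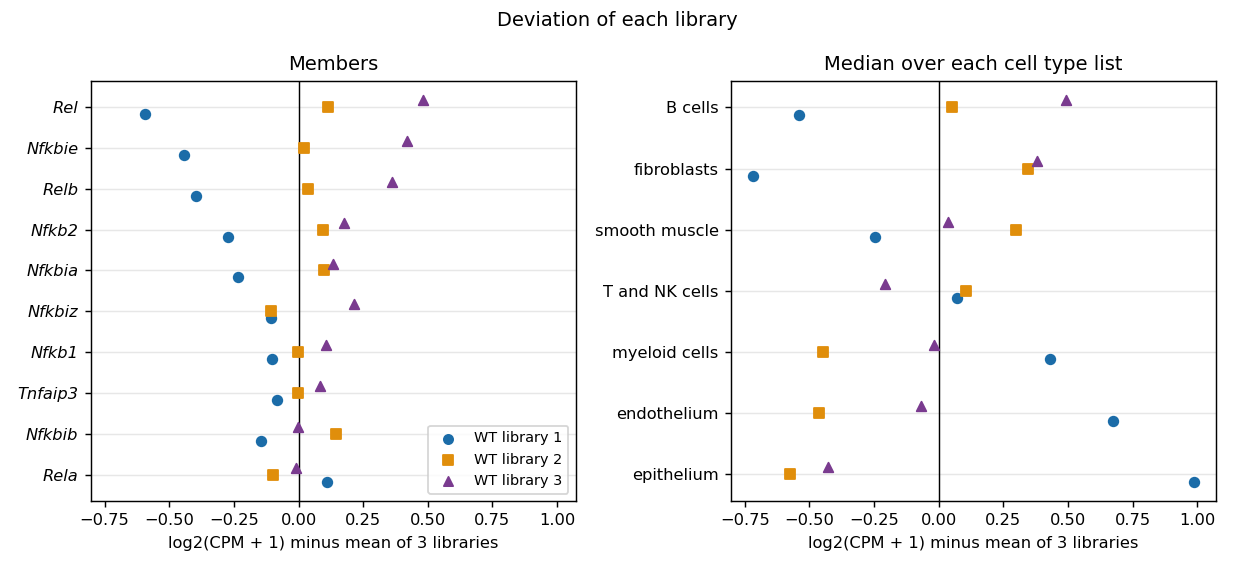
Deviation of each library from the mean of the 3, on the log2(CPM + 1) scale, for each member (left) and as the median over each cell type list (right). Points are WT libraries 1 to 3. Rel, Nfkbie and Relb spread from -0.59, -0.44 and -0.40 in library 1 to 0.48, 0.42 and 0.36 in library 3, and the B cell list from -0.54 to 0.49.

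Transcripts that define the labelled cell type were low. The 10 smooth muscle markers had a summed level of 141, 187 and 156 CPM and a median of 2.95 ± 0.53 CPM per kilobase, under that of each of the 10 members. Tagln was the highest at 9.49 ± 1.16 CPM per kilobase, close to the 9.29 of Relb, and Cnn1 the lowest, with no count in library 1, which allows up to 0.159 CPM. The 10 markers of T and NK cells had a median of 39.5 ± 4.12 CPM per kilobase, from Cd8a at 22.0 to Cd2 at 95.1, and summed to 1288, 1278 and 1083 CPM. B cell markers had a median of 32.3 ± 11.9, from Blk at 15.9 to Ighm at 367 CPM per kilobase. Medians were 15.1 ± 5.67 for fibroblasts (Tcf21 at 2.23 to Gsn at 241), 14.7 ± 8.55 for epithelium (Foxj1 at 0.81 to Scgb1a1 at 16432), 12.1 ± 3.76 for endothelium (Emcn at 1.17 to Epas1 at 81.6) and 8.40 ± 4.48 for myeloid cells (Marco at 0.50 to Lyz2 at 286). Which cells carried the members' transcripts was not measured.

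Genes that act with the members were described from lists of the pathway. Of 27 kinases and adaptors upstream of NF-kappaB, 26 averaged 10 CPM or more, with a median of 9.25 ± 1.10 CPM per kilobase. Among the highest were the ubiquitin ligase Birc3 at 26.3 ± 4.07 CPM per kilobase and Tab2, an adaptor of the kinase TAK1, at 23.4 ± 1.02. The catalytic subunits of the IkB kinase, Chuk and Ikbkb, had 9.18 ± 1.38 and 8.79 ± 1.34, and its regulatory subunit Ikbkg, the lowest of the list, 2.80 ± 0.44 CPM per kilobase. These levels rest on the exon union, which is 19078 bases for Ikbkb, and before division by length Ikbkb had 168 CPM against 132 for Birc3 and 144 for Tab2. No transcript length was applied to the pathway lists. The kinase of the alternative pathway, Map3k14, had 9.55 ± 0.81 CPM per kilobase.

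Of 14 further brakes and IkB-like proteins, 11 averaged 10 CPM or more, with a median of 8.99 ± 1.2 CPM per kilobase. Tnip1, a partner of the Tnfaip3 product, led at 38.4 ± 3.46, followed by Nfkbid, a nuclear IkB-like protein, at 36.8 ± 12.6 and Tax1bp1, another partner, at 27.2 ± 3.35 CPM per kilobase. Nfkbid had 55.1, 89.9 and 114 CPM, lowest in library 1 and highest in library 3, as were Rel, Relb and Nfkbie. Of the 14 genes, 6 had that order and 4 also a ratio of at least 1.5, against 33.7% and 10.6% of the 8944 genes averaging 10 CPM or more. With TMM sizes 6 had the order and 1 also the ratio, against 19% and 5.1%. Nkiras1, which binds IkB-beta, was the lowest at 1.25 ± 0.19 CPM per kilobase. All 5 listed genes of the ubiquitin ligase that degrades IkB averaged 10 CPM or more. Their median was 8.17 ± 0.80 CPM per kilobase, and Skp1a, Cul1 and Fbxw11 led at 43.5, 17.2 and 8.17. Btrc, a recognition subunit like Fbxw11, had 1.05 ± 0.05 CPM per kilobase. The exon union of Btrc is 16908 bases, and before division by length Btrc had 17.8 CPM against 35.3 for Fbxw11. Coactivators and modifiers had a median of 20.7 ± 2.32 over 9 genes, with the kinase Pim1 at 38.1 and the acetyltransferase Crebbp at 31.4 among the highest, and the deacetylase Hdac3 lowest at 4.17 CPM per kilobase.

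Target genes of NF-kappaB spanned a wide range. Of 30, 27 averaged 1 CPM or more and 16 averaged 10 or more, and their median of 4.41 ± 1.17 CPM per kilobase lay below that of the 10 members. By choice the list leaves out members that are themselves targets, such as Nfkbia and Tnfaip3. It shares Traf1 and Birc3 with the kinases and adaptors. The chemokine Ccl5, which T and NK cells also make, led at 408 ± 114, followed by the factor Irf1 at 38.9 ± 4.91 and the activation marker Cd83 at 35.2 ± 12.7 CPM per kilobase. Ccl20 had no count in any library, and a count of 0 allows up to 0.178 CPM in the library with the smallest total. Immediate early genes are induced within minutes of a stimulus. Their list here also holds Klf2 and the heat shock genes Hspa1a and Hspa1b. All 16 genes of the list averaged 10 CPM or more, with a median of 82.0 ± 18.9 CPM per kilobase, between Nfkbiz and Tnfaip3. Junb, Klf2 and Btg2 led at 383, 129 and 124, and Atf3 was lowest at 21.4 CPM per kilobase. Their median deviation was -0.36 in library 1, 0.14 in library 2 and 0.10 in library 3. For Nfkbia the same deviations were -0.23, 0.10 and 0.13, and any link between them was not tested.

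**Figure D4:**
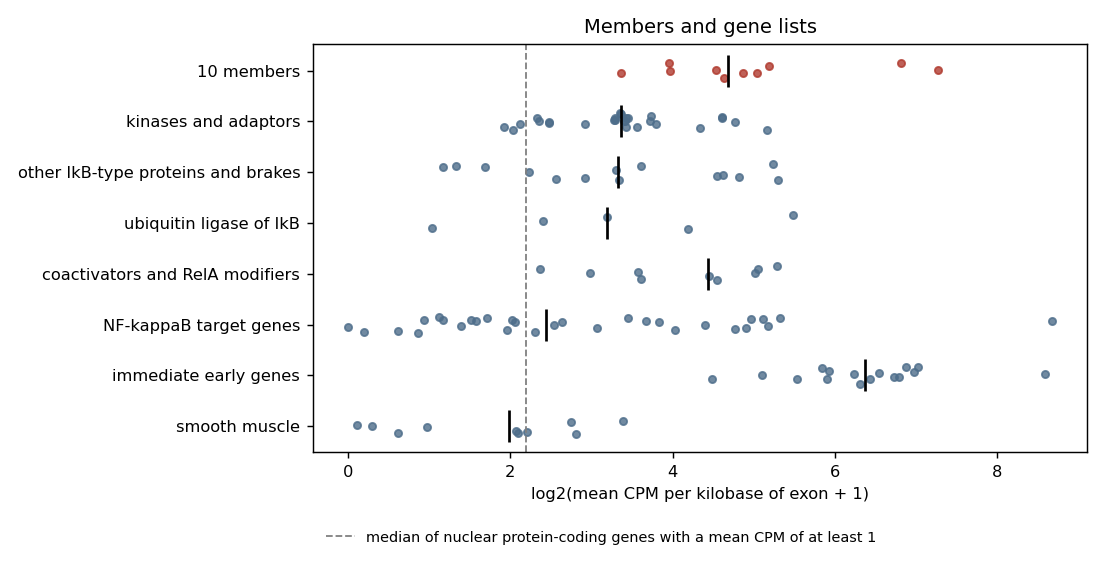
Mean level of each gene, as log2(CPM per kilobase of exon + 1), for the 10 members (red) and for pathway and smooth muscle lists (blue). Black bars mark list medians and the dashed line the median of nuclear protein-coding genes averaging 1 CPM or more. The members' median, 24.7 CPM per kilobase, lies above the medians of the listed kinases (9.25), targets (4.41) and smooth muscle markers (2.95) and below that of immediate early genes (82.0).

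Most pathway genes, like most genes at these levels, were called as varying between libraries. The chi-square test called 23 of 27 kinases and adaptors, 12 of 14 brakes, 4 of 5 ligase genes, 9 of 9 coactivators, 21 of 28 targets with enough counts and 16 of 16 immediate early genes. Of the 8944 genes averaging 10 CPM or more, 79.2% were called in the same test, and 80% when those genes were tested alone. The test covers differences between libraries in either direction, and none of these counts is a response to a treatment.

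Genes with a pattern over the libraries like that of a leading member were sought among 7882 other nuclear protein-coding genes averaging 10 CPM or more. Likeness was the largest absolute difference of centred log2(CPM + 1) over the 3 libraries. Among the 3 nearest to Nfkbia were Ttc37 and Creb1, within 0.00832 and 0.00954, nearest to Tnfaip3 were Gtf2e1, Ubr1 and Axin1, within 0.00276 to 0.00516, and nearest to Nfkbiz were Dnajc5, Ppp3cc and Rpp21, within 0.000814 to 0.00474. Over only 3 libraries many genes come close. Within 0.05 there were 266 genes for Nfkbia, 408 for Tnfaip3 and 231 for Nfkbiz.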

How the data were processed

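The deposited table holds raw counts, whole reads for each of 48709 mouse genes with no normalization. The authors used DESeq2 1.18.1, featureCounts 1.6.3, STAR 2.6.1d, Trimmomatic 0.38 and FastQC, per the submitters' processing notes, which give no settings here and name human builds (hg38, GRCh38). Gene IDs are mouse, and 88.4% of 48349 shared IDs had coordinates identical to GENCODE M21 (GRCm38), which gave exon lengths. Coordinates of Nfkb2, Nfkbia and Nfkbie differed from it. For Nfkb2 GENCODE M21 gives 46304320 to 46312385, a wider span than the deposited one. Per the labels' protocols, libraries were stranded total RNA. Columns named as controls 1 to 3 were assigned to WT 1 to 3 by number.

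Levels are CPM of library totals, and ratios add 0.5 CPM. Variation was tested by chi-square with TMM sizes where a gene had 10 or more counts in all, adjusted by Benjamini-Hochberg. Spread came from edgeR 4.0.16 (R 4.3.3), fitted with no covariate. The chi-square test was tested on simulated data with counting error alone. Of genes changed 1.5-fold and 2-fold in 1 library, 67% and 98% were recovered over 23347 genes. Members share at most 0.65% of their 50-base words with other genes' transcripts. Alternatives were other scalings, filters, pseudocounts and lengths, and leaving out each library. Named genes are all members, the 3 highest and the lowest of each pathway list per kilobase, the ends of each cell type list, and the 3 nearest in pattern to each of the 3 highest members. Chuk, Ikbkb, Map3k14, Cd79a, Klrd1, Nkg7, Cd3e, Cd3g, Traf1, Hspa1a, Hspa1b and the overlapping genes fall outside that rule. Some genes that the rule names are not reported here. Members and lists were chosen with earlier results of these data known.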

Additional observations from a re-analysis of the deposited data

How the results depend on the processing

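The count of varying members was 8 with TMM and with DESeq2 1.42.0 size factors, 10 with library totals, and 6 to 7 when a library was left out, where 38.2% to 56.8% of all genes were called. The members' median coefficient of variation then was 0.127 to 0.179. Median levels of the members were 24.7 CPM per kilobase, 41.3 with totals of nuclear protein-coding genes, and 35.7 with transcript length (added after seeing the data). Of the 10 chosen ratios, 9 differed under the main setting. Without length scaling 3 of these 9 turned, Nfkb1 to Nfkb2 to 0.71, Rela to Nfkb1 to -1.02, and Nfkbia to Tnfaip3 to -1.70. Of neighbours in the order that differed, Nfkbie to Nfkb1 turned to -1.42 and Nfkbib to Relb to -0.16, and among those that did not differ Nfkbiz to Rel became -0.36 and Rela to Nfkb2 -0.32. With transcript length the 5 ratios that turned were 0.32, -0.42, -0.22, -0.61 and -0.062, and by construction only the lengths differ. The lowest and highest values without a library lay within 1.5 times the main count or within 1 SD for these summaries and for the pathway lists. No paired analysis was possible because the series has 1 group. Depth limits levels near 3 counts, which no member approaches. The simulated 1.5-fold changes, of which 67% were recovered, lay in genes drawn at random above a count minimum, with counting error alone. That share therefore does not give the depth limit for calls of the members, which had 501 counts or more in each library.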
